A study of Homo sapiens with 4 samples.

Results

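The transcripts of 46 genes that copy the genome, supply its deoxynucleotides or drive entry into S phase were compared between A549 cells treated with embelin and untreated A549 cells. The genes were listed by name. A gene was represented by every non-control probe whose gene name in the scanner files was the listed symbol or its older alias, or whose accession was a RefSeq transcript of the gene. This rule found 62 of the 50238 probes on the array, at least 1 for each of the 46 genes. After removal of probes near background, 45 of the 46 genes were tested, among 17649 genes or transcripts in all. CCNE2, which encodes a second E-type cyclin, was the exception. Its only probe was not well above background on both arrays of either group, with log2 signals of 5.37 and 5.49 in the controls and 3.88 and 5.56 with embelin.

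A549 cells are an established line from a human lung adenocarcinoma, and embelin, a benzoquinone from plants, is known to inhibit XIAP. Cells kept in low-serum medium were either left untreated for 4 h (control, n = 2) or exposed to 15 µM embelin for 4 h (embelin, n = 2), and each RNA sample was hybridized to 1 single-colour Agilent array. The labels call the controls untreated and name no vehicle. As nothing in the labels says that the replicates came from separate cultures, the p-values measure only the spread between these samples, which may be technical.

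The 4 arrays shared 1 slide and 1 scan time, with the controls at positions 4 and 1 and the embelin samples at positions 2 and 3. The arrays differed within each group in how much was detected, as control replicate 2 and embelin replicate 1 had 25265 and 25698 probes well above background and the other 2 arrays had 33532 and 33363. All 45 genes tested were well above background on every array, and no spot was saturated. The A549 markers KRT7, KRT8, KRT18, AKR1B10, AKR1C1, ALDH1A1 and NQO1 were well above background on all arrays. Of 7 markers of leukocytes, endothelium and fibroblasts, DCN was detected on 0 arrays, PTPRC and LUM on 1, PECAM1 and VWF on 2 and CD3E on 3, and COL1A1 was detected on 4, with log2 signals of 6.38 and 6.27 in the controls and 7.56 and 7.69 with embelin. The part of such signals in the results below was not tested.

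Replication is prepared when the origin recognition complex, CDC6 and CDT1 load the MCM2 to MCM7 helicase onto DNA, a step called licensing that geminin (GMNN) blocks outside G1. Cyclin E with CDK2, and the CDC7 kinase, then turn the loaded helicase into an active form with CDC45 and the GINS complex, and polymerases, the sliding clamp PCNA and its loader follow. Many of these genes are classical targets of the E2F transcription factors, and their transcripts peak as cells pass from G1 into S phase. In RNA from a whole culture, fewer cells in S phase and less RNA per cell cannot be told apart.

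Each gene was read through oligonucleotide probes of 60 bases. The first 30 bases of the 4 kept probes of CDC25A and E2F2, the only adjusted calls, are shown. Each call came from the probe marked as used. Both probes of CDC25A were lower with embelin, and those of E2F2 went opposite ways.
CDC25A, probe used: tgatgaatcatcaccggttgtccccttatc
CDC25A, other kept probe: actgtgccacaatgcagttctgagcaccgt
E2F2, probe used: ctttatgagcaccatgtaagcctccttgta
E2F2, other kept probe: gcgggtgagggcatcagcgatctcttcgac

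Most of the listed transcripts were lower with embelin, by amounts that were mostly small. The fitted log2 fold change (embelin minus control) was below 0 for 41 of the 45 genes and above 0 for 4. Among all 17649 genes tested it was below 0 for 9902. Over the 45 its median was -0.41, with quartiles of -0.68 and -0.21. Over all genes tested the median was -0.06, with quartiles of -0.35 and 0.22. In 33 genes both embelin arrays lay below both control arrays, in 1 gene (TK1) both lay above, and in 11 they overlapped. Of the 17298 genes with values from all arrays, 30.7% lay below in this way and 21.1% above.

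After Benjamini-Hochberg adjustment over all genes tested, limma called 2 of the 45 genes, E2F2 and CDC25A, both lower, against a background of 0.561% of all genes called lower. It called 0 of the 45 higher, with 1.25% of all genes called higher. At the study's threshold of at least 2-fold with an unadjusted p under 0.05, limma placed 7 of the 45 genes lower (background 3.99%) and 0 higher (background 4.26%). The methods' t-test placed 4 lower at this threshold, CDC25A, E2F2, CCNE1 and CDC6, with 2.73% of all genes. With the p threshold alone, 18 were lower and 0 were higher by limma, where 11.1% and 8.36% of all genes were. With the p threshold alone, the methods' t-test placed 14 lower and 1 (TK1) higher, with 9.11% and 6.71% of all genes. These counts describe a list that was drawn up with earlier results of these data known.

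**Figure D1:**
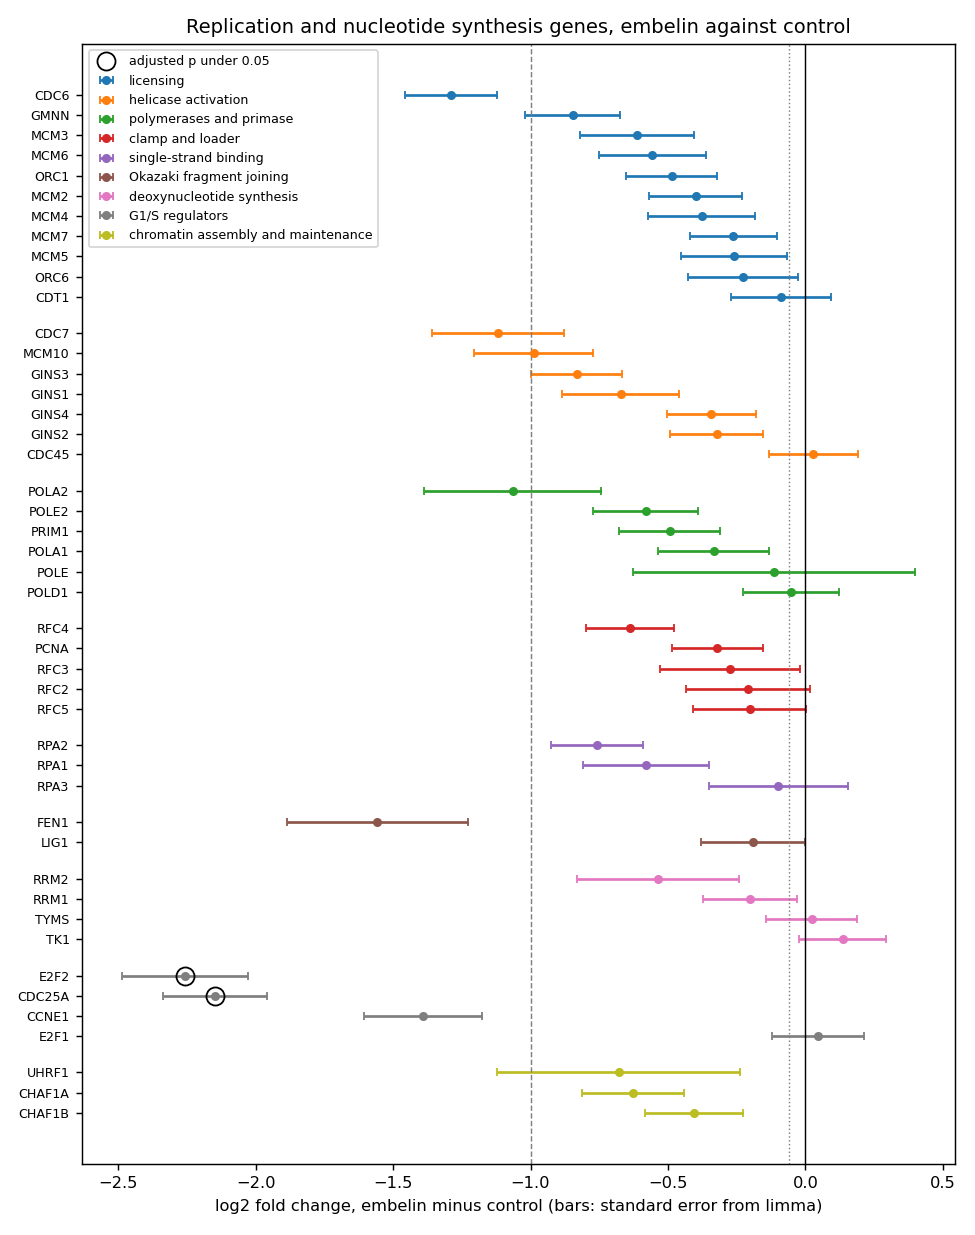
Log2 fold change (embelin minus control, x axis) of the 45 genes tested, grouped and coloured by role, with bars for the standard error in limma, a dashed line at 2-fold lower and a dotted line at the median of all genes. The 2 circled points are the adjusted calls, E2F2 and CDC25A. Below 0 lie 41 of the 45 points, where 9902 of all 17649 genes were below 0.

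The 2 adjusted calls were both among the genes that regulate the step from G1 into S phase. CDC25A, a phosphatase that activates cyclin E-CDK2, had normalized log2 signals of 9.76 and 9.79 in the untreated cells and 7.47 and 7.78 after embelin. Both embelin arrays thus lay about 2 log2 units below both controls. It fell by 2.15 on the log2 scale, a 4.43-fold difference (standard error, SE, 0.19, with adjusted p = 0.0350 in limma). Its other kept probe, well above background on 3 of the 4 arrays, gave a log2 fold change of -2.36.

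E2F2, a transcription factor of the activating E2F class, had log2 signals of 12.17 and 12.23 in the controls and 9.70 and 10.18 with embelin at the probe used. The groups were well apart at this probe. It fell by 2.26 (SE 0.23, adjusted p = 0.0421 in limma). At its other kept probe, with lower signal, the values were 7.997 and 7.034 in the controls and 8.054 and 7.924 with embelin, a log2 fold change of 0.47. The fall of E2F2 therefore rested on 1 of its 2 probes, and with the mean over both it was -0.89 and was not called (adjusted p = 0.167 in limma). With 1 of the 4 arrays left out, the log2 fold change was -2.30 to -2.00 for CDC25A and -2.50 to -2.01 for E2F2. Such a fit has 1 array in a group and cannot judge whether the calls hold. Over the alternatives with all 4 arrays, the adjusted p in limma ran from 0.00571 to 0.383 for CDC25A. For E2F2 it ran from 0.00345 to 0.386. The log2 fold change of both genes stayed below 0 in every alternative. The arrays were also paired by detection, in a block of the 2 arrays detecting more probes and the 2 detecting fewer. There limma gave an adjusted p of 0.184 for CDC25A and 0.195 for E2F2, and called 0 of all genes.

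CCNE1, the cyclin E1 partner of CDK2, had log2 signals of 13.38 and 13.70 in the controls and 12.01 and 12.29 with embelin. The log2 fold change was -1.39 (SE 0.21), which missed the adjusted threshold (adjusted p = 0.0706 in limma). E2F1, another activating E2F, was at 11.85 and 11.81 in the controls and at 11.79 and 11.96 with embelin. Its groups overlapped, with a log2 fold change of 0.05 (SE 0.17), so E2F1 showed no direction of its own.

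**Figure D2:**
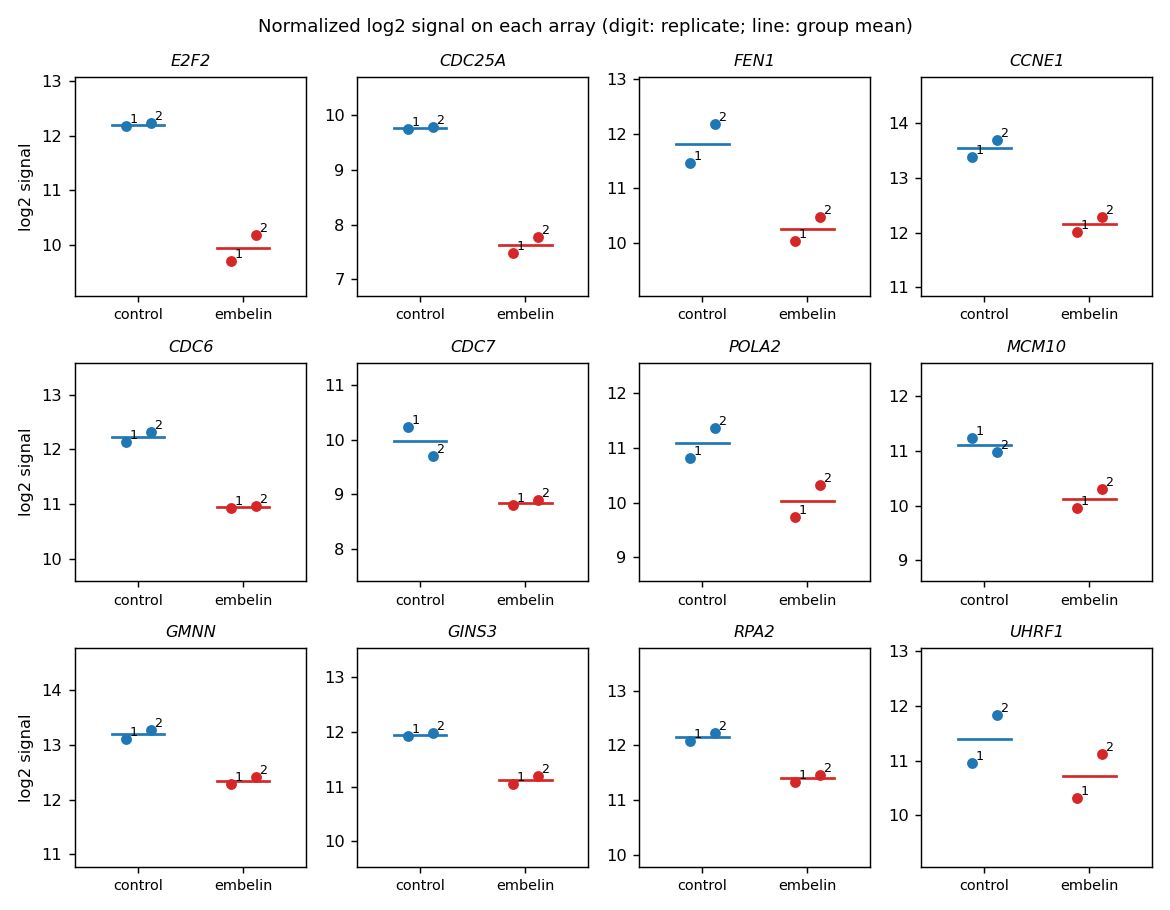
Normalized log2 signal (y axis, 4 log2 units in every panel) on each of the 2 control and 2 embelin arrays for 12 genes. Digits give the replicate and lines the group mean. The genes are those at least 2-fold lower at an unadjusted p under 0.05 in limma and those with the next largest changes. In all panels but UHRF1 both embelin points lie below both control points, as in 30.7% of all genes. Picking genes by the size of their change favours such separation.

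Among the 11 licensing genes, every fitted change was below 0, and 10 had both embelin arrays below both controls, against 30.7% of all genes. CDC6, the loader that recruits the helicase to origins, had log2 signals of 12.15 and 12.32 in the controls and 10.92 and 10.96 with embelin. Replicates were close, and the difference was 2.44-fold (log2 fold change -1.29, SE 0.17), which just missed the adjusted threshold (adjusted p = 0.0551 in limma). GMNN, the licensing inhibitor, was at 13.11 and 13.28 in the controls and at 12.28 and 12.41 with embelin. Its log2 fold change was -0.85 (SE 0.17, adjusted p = 0.107 in limma). CDT1, the partner of CDC6 that geminin binds, did not follow. Its log2 fold change was -0.09 (SE 0.18), and its other probe gave -0.07.

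The 6 subunits of the replicative helicase, MCM2 to MCM7, are among the 11 licensing genes counted above. All had both embelin arrays below both control arrays, as had 30.7% of all genes, by small amounts. The log2 fold changes were between -0.61 for MCM3 and -0.26 for MCM5, with a median of -0.39. MCM6 was at -0.56, MCM2 at -0.40, MCM4 at -0.38 and MCM7 at -0.26. Only MCM3 and MCM6 passed an unadjusted p of 0.05 in limma, where 11.1% of all genes were lower. The lowest adjusted p of the 6 was 0.229 in limma. Of the origin recognition subunits, ORC1 was at -0.49 (SE 0.17) and ORC6 at -0.23 (SE 0.20).

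Of the 7 genes that activate the loaded helicase, 6 had both embelin arrays below both controls (30.7% of all genes) and 4 were lower at an unadjusted p under 0.05 (11.1% of all genes). CDC7, the kinase that phosphorylates the MCM proteins, had log2 signals of 10.23 and 9.71 in the controls and 8.80 and 8.90 with embelin, a 2.17-fold difference (log2 fold change -1.12, SE 0.24, adjusted p = 0.116 in limma). MCM10, which helps to activate the helicase, was at 11.24 and 10.98 in the controls and at 9.95 and 10.29 with embelin. Its log2 fold changes were -0.99 and -1.06 at its 2 probes.

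The 4 GINS subunits, which form 1 complex, are among the 7 genes counted above. At the probes used all were lower on both embelin arrays, as were 30.7% of all genes. GINS3 was at 11.92 and 11.98 in the controls and at 11.04 and 11.19 with embelin, a log2 fold change of -0.83 (SE 0.17, adjusted p = 0.104 in limma). The log2 fold change was -0.67 for GINS1, -0.34 for GINS4 and -0.32 for GINS2. GINS4 and GINS2 did not pass an unadjusted p of 0.05 in limma. At the other kept probes of GINS3 and GINS4, of lower signal, the groups overlapped, with log2 fold changes of -0.31 and -0.21. CDC45, which travels with the MCM and GINS proteins at the fork, had log2 signals of 13.65 and 13.55 in the controls and 13.61 and 13.65 with embelin. Its difference of 0.03 (SE 0.16) was within the spread of the arrays.

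The polymerase genes were mixed. POLA2, the accessory subunit of the polymerase alpha-primase complex that starts each new strand, had log2 signals of 10.81 and 11.38 in the controls and 9.74 and 10.32 with embelin. The groups did not overlap, but replicates differed by more than in most of the list (log2 fold change -1.07, SE 0.32, adjusted p = 0.196 in limma). In the same complex, PRIM1, the primase subunit, was at -0.49 (SE 0.18) and POLA1, the catalytic subunit, at -0.33 (SE 0.20). Of the leading-strand polymerase epsilon, POLE2 was at -0.58 (SE 0.19), and POLE had embelin arrays so far apart, 6.25 and 7.66, that its log2 fold change of -0.11 carried an SE of 0.51. POLD1, the catalytic subunit of the lagging-strand polymerase delta, was at -0.05 at both of its probes.

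At the clamp, PCNA had both embelin arrays below both controls with a log2 fold change of -0.32 (SE 0.16). Of its loader, RFC4 was at -0.64 (SE 0.16, adjusted p = 0.150 in limma), while RFC2, RFC3 and RFC5 lay between -0.28 and -0.20, each with an unadjusted p above 0.3. The subunits of the single-strand binding protein RPA also had unlike values. Differences between the subunits of the loader or of RPA were not tested. RPA2 had log2 signals of 12.08 and 12.22 in the controls and 11.34 and 11.46 with embelin, a log2 fold change of -0.76 (SE 0.17, adjusted p = 0.122 in limma). RPA1 was at -0.58 (SE 0.23), and RPA3 at -0.10 (SE 0.25) with overlapping groups. The other 2 kept probes of RPA1 gave -0.74 and -0.04. The mean over its probes was positive (0.20, SE 0.39), although every kept probe was negative. On embelin replicate 1 that mean left out the probe of lowest signal, which had no value there.

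FEN1, the flap nuclease that trims Okazaki fragments, had log2 signals of 11.46 and 12.17 in the controls and 10.04 and 10.48 with embelin. The embelin arrays were clearly lower, although the controls differed from each other by 0.71. The 2.94-fold difference (log2 fold change -1.56, SE 0.33) was not called (adjusted p = 0.113 in limma), and the other kept probe gave -1.55. LIG1, the ligase that seals the trimmed fragments, had overlapping groups and a log2 fold change of -0.19 (SE 0.19).

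Of the enzymes of deoxynucleotide synthesis, 0 of the 4 passed an unadjusted p of 0.05 in limma, and 1 of them, TK1, did by the methods' t-test. TYMS, thymidylate synthase, had log2 signals of 14.05 and 13.89 in the controls and 13.98 and 14.00 with embelin (log2 fold change 0.02, SE 0.17). TK1, thymidine kinase, was at 16.97 and 16.96 in the controls and at 17.12 and 17.08 with embelin, the only gene of the list with both embelin arrays above both controls (log2 fold change 0.14, SE 0.16). The methods' t-test, which uses the spread of TK1 alone, gave an unadjusted p of 0.0155 and an adjusted p of 0.232. The subunits of ribonucleotide reductase were at -0.20 for RRM1 and -0.54 for RRM2, whose other probe gave 0.09, and the direction of RRM2 thus depended on the probe.

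Of the chromatin genes, CHAF1A and CHAF1B encode subunits of the assembly factor that deposits histones behind the fork. CHAF1A had a log2 fold change of -0.63 (SE 0.19, adjusted p = 0.189 in limma) and CHAF1B one of -0.41 (SE 0.18). UHRF1, which directs maintenance of DNA methylation, had log2 signals of 10.95 and 11.84 in the controls and 10.32 and 11.11 with embelin. The groups overlapped, with a log2 fold change of -0.68 (SE 0.44) that was -1.12 without control replicate 1, -0.23 without control replicate 2, -0.28 without embelin replicate 1 and -1.07 without embelin replicate 2. At its other kept probe, with log2 signals of 7.64 and 8.404 in the controls and 6.57 and 7.49 with embelin, the groups did not overlap and the log2 fold change was -0.99.

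More than 1 probe was kept for 12 of the genes. In 10 of these the probes gave log2 fold changes of the same sign, and in 8 they lay within 0.5 of each other. The 2 with opposite signs were E2F2 and RRM2.

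**Figure D3:**
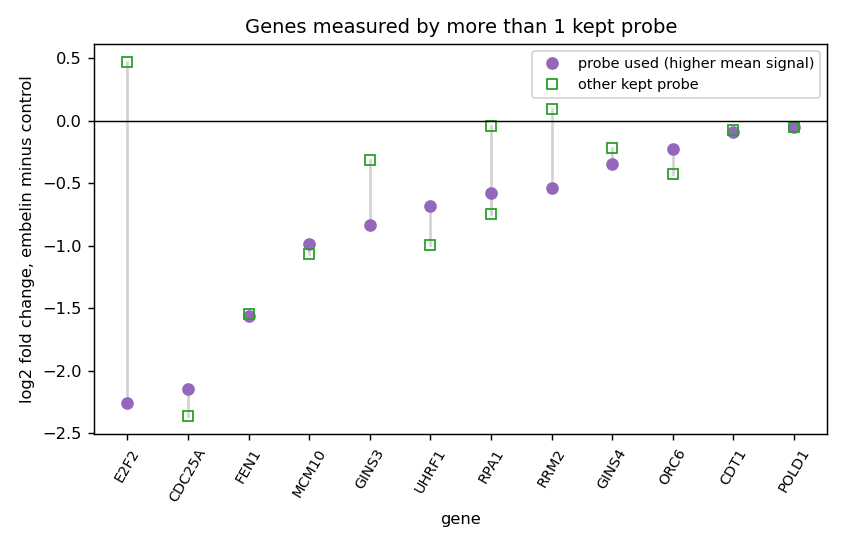
Log2 fold change (y axis) at each kept probe of the 12 genes (x axis) with more than 1, the filled circle being the probe with the higher mean signal, which stood for the gene. The 2 symbols lie almost on each other for FEN1 (-1.56 and -1.55) and far apart for E2F2 (-2.26 and 0.47).

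The size of the shift depended on the embelin array. Against control replicate 1, 44 of the 45 genes were lower on embelin replicate 1, where 60.7% of all genes were. On embelin replicate 2 it was 35, with 55.2% of all genes. Against control replicate 2 these numbers were 41 (55.8% of all genes) and 38 (49.9%). The median difference was -0.58 and -0.34 against control replicate 1, and -0.56 and -0.36 against control replicate 2, where the medians over all genes were -0.12, -0.06, -0.09 and 0.00. Embelin replicate 1 was the treated array with fewer probes above background. Comparing arrays with a like number of probes above background, the median was -0.34 (control replicate 1 with embelin replicate 2) and -0.56 (control replicate 2 with embelin replicate 1).

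A wider list of 70 other genes of replication, its checkpoints, nucleotide synthesis and the E2F and RB families was examined in the same way. Of the 69 tested, 55 had a log2 fold change below 0 and 14 above, where 9902 of all 17649 genes were below 0. The median was -0.30, and in 44 both embelin arrays lay below both controls (30.7% of all genes did). After adjustment limma called 0 of the 69. Without adjustment 14 were lower (11.1% of all genes) and 0 higher (8.36%) at a p under 0.05 in limma. The 3 of the 14 that were at least 2-fold lower were a share of the 69 near the background of 3.99%. ASF1A, a histone chaperone, had the lowest adjusted p, with log2 signals of 9.75 and 9.65 in the controls and 8.37 and 8.18 with embelin (log2 fold change -1.43, SE 0.17, adjusted p = 0.0511 in limma).

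The other 2 were FBXO5, an inhibitor of the anaphase-promoting complex, at -1.14 (SE 0.18), and E2F8, a repressive E2F, at -2.95 (SE 0.48) with 1 of 2 embelin arrays well above background. TICRR, which helps CDC45 onto the helicase, was at -0.96 (SE 0.28), and DBF4, the activating subunit of the CDC7 kinase, at -0.84 (SE 0.25). The 3 largest positive values among genes detected on all arrays were those of WEE1 (0.65, SE 0.31), the kinase opposing CDC25 phosphatases, RB1 (0.51, SE 0.19), which restrains E2F, and CHTF18 (0.31, SE 0.16), part of an alternative clamp loader. None of these 3 passed an unadjusted p of 0.05. DBF4, named beside its partner CDC7, was picked after its value was seen.

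**Figure D4:**
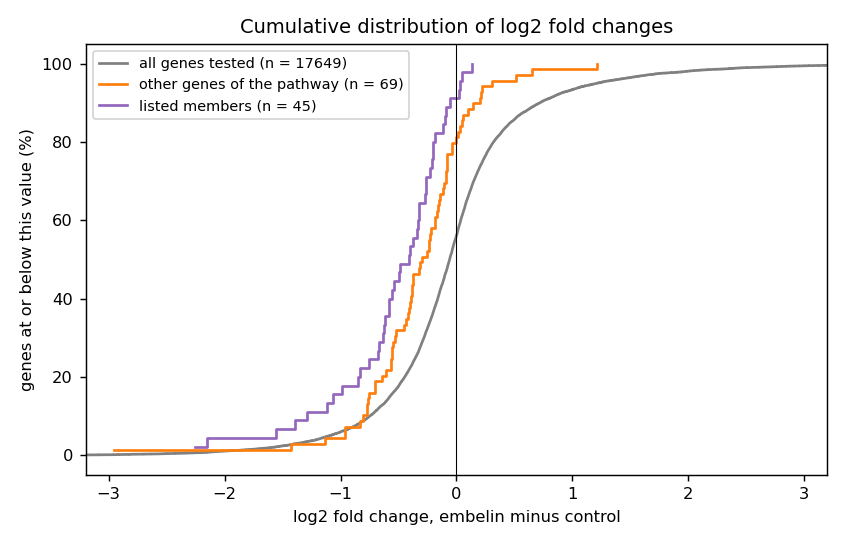
Cumulative share of genes (y axis, %) at or below each log2 fold change (x axis, embelin minus control) for the 45 listed genes tested, the 69 other genes of the pathway tested and all 17649 genes tested. The curve of the listed genes (median -0.41) lies left of that of the wider list (median -0.30), which lies left of that of all genes (median -0.06) over most of its course.

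As many of the listed genes are known E2F targets, their promoters were searched for E2F motif letters. The windows were RefSeq promoters of build GRCh38.p14, from 250 bases before to 50 bases after a gene's start, and 52 windows of 40 of the 46 genes were in the table used. The motifs searched were TTTCCCGC, TTTGGCGC, TTTCGCGC and TTTGCCGC on either strand, with overlapping matches counted separately. At least 1 was found in 24 of the 52 windows, or 46.2%, against 3.32% of the 35116 windows of all genes and 4.85% of the 14795 windows of genes tested. Counted by gene, 23 of 40 held the motif, or 57.5%, against 3.99% of all genes and 6.58% of genes tested.

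The stretches of 60 bases before the start site that hold the motif are shown for genes at least 2-fold lower with embelin at an unadjusted p under 0.05 in limma, and for E2F1 and TYMS, which hold it and whose groups overlapped. Capitals mark the motif, and each sequence is written 5′ to 3′ on the gene's strand.
CDC25A, chr3:48188428-48188487, minus strand: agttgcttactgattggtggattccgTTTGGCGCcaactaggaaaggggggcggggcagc
E2F2, chr1:23531242-23531301, minus strand: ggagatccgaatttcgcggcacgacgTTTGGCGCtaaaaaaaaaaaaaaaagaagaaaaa
CDC7, chr1:91501018-91501077, plus strand: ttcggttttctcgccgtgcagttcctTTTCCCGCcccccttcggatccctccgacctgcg
CDC7, chr1:91501052-91501111, plus strand: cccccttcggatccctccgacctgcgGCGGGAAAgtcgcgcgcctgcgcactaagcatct
POLA2, chr11:65261883-65261942, plus strand: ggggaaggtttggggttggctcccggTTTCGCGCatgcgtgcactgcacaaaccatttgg
E2F1, chr20:33686386-33686445, minus strand: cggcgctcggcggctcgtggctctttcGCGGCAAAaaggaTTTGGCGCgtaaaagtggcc
TYMS, chr18:657588-657647, plus strand: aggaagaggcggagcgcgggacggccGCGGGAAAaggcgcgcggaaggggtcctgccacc

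The 23 genes with it had a median log2 fold change of -0.56 and ranged from -2.26 to 0.05. Of them, 11 were lower at an unadjusted p under 0.05 in limma, as were 11.1% of all genes tested. The 17 genes without it had a median of -0.49 and ranged from -1.56 to 0.14, and 6 were lower in this way. Genes outside the list were not split by the motif, and the difference between these groups was not tested. CDC25A and E2F2, the adjusted calls, and E2F1 carried the same 8 letters TTTGGCGC. In CDC6 the match began 7 bases after the start site. No match was found in the windows of CCNE1 and FEN1, which were among the lowest values of the list. A match of letters is a description and not a site of binding.

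**Figure D5:**
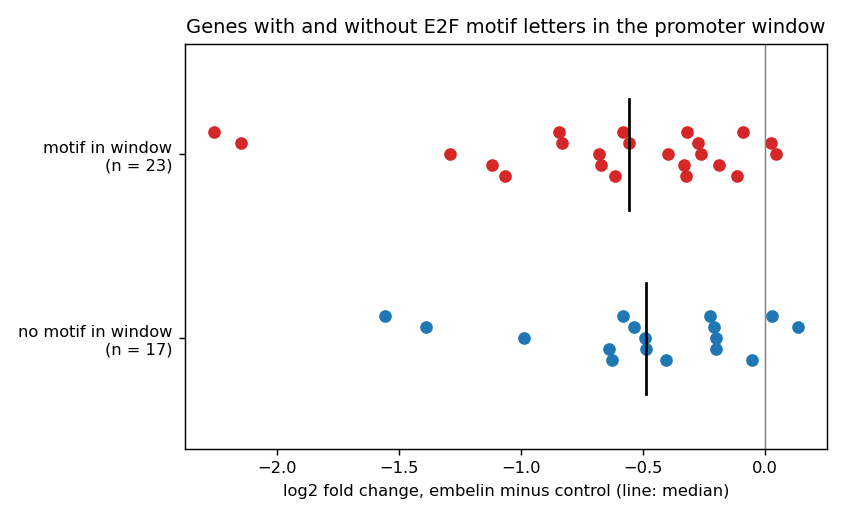
Log2 fold change (x axis, embelin minus control) of the 23 genes with and the 17 genes without E2F motif letters in a promoter window, with a line at each median (-0.56 and -0.49). The 2 lowest points, E2F2 and CDC25A, hold the motif, and the lowest point without it is FEN1 (-1.56).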

How the data were processed

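Gene expression was measured in 4 samples of A549 cells on 1 single-colour Agilent slide. The authors deposited intensities from Feature Extraction 10.7.3.1 (per the file headers), background-subtracted and detrended within each array, with surrogate values for dim spots and no normalization between arrays. A value table per probe was deposited too, holding those intensities, with array medians of 58.5 to 74.0. Its linear scale was found from the scanner files, from which 97 to 117 of 50238 probes per array differed by more than 0.001 in log2. The number of arrays limits the precision.

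Here each array was scaled to a common 75th percentile (601 to 739 before, 675 after), as in the study's methods, outlier spots were left out, spots of a probe were averaged, and log2 was taken after a floor of 1. A probe was kept (26146) if it was well above background in either group, on both of its arrays, and the kept probe with the highest mean stood for the gene. Of all probes, 28595 were named by accession in a RefSeq table, 2341 through another probe of the same name and 19302 by the file. Groups came from the sample titles. Embelin was compared with control by limma 3.58.1 in R 4.3.3 (lmFit, eBayes), with Benjamini-Hochberg adjustment over the 17649 genes. The fit was tested only on simulated data with shifts larger than any change of the listed genes. That test does not show how the fit performs at the sizes reported here.

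The members and lists were chosen with earlier results of these data known. All 46 members are named by role. Values by array are given for members called, or at least 2-fold changed with an unadjusted p under 0.05, and then for the next largest changes up to 12 genes, and for others where they are set beside these. From the wider list, the 3 largest falls and rises among genes well above background on all arrays are named. The alternatives were normexp (offset 50), quantile normalization, the deposited table, no filter or one on all 4 arrays, the methods' t-test, limma with trend and robust, a replicate block, array background as a block, slide position as a covariate, the mean over probes, and leaving out each array. 1 marker gene is not reported here.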

Additional observations from a re-analysis of the deposited data

How the results depend on the processing

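The fitted log2 fold change was below 0 for between 38 and 42 of the 45 genes under every alternative run. The median over all genes was between -0.107 and 0.026 under these alternatives. The adjusted calls depended on the processing. In place of 2, with 99 of all 17649 genes called lower, limma called 4 lower with normexp (277 of all 17649). With probes well above background on all 4 arrays it called 4 (345 of 15542), and with trend and robust 10 (499 of 17298). It called 1 with the deposited table (33 of 17650) and 0 with the mean over probes (56 of 17649). Without a filter on dim probes, with array background as a block or with slide position as a covariate it called 0. In each of these last fits 0 of all genes were called lower or higher, so the loss was not particular to the listed genes. With the replicate block limma called 0 of the 45 and 0 of all genes. There 7 of the 45 were at least 2-fold lower at an unadjusted p under 0.05 in limma (814 of all 17649). The samples share only a replicate number, with a correlation of 0.18 between deviations of same-numbered arrays over 2 pairs. The methods' t-test called 0 of the 45 and 0 of all genes after adjustment. It placed 4 of the 45, not 7, at least 2-fold lower (472 of all 17298). With 1 array left out, the lone array being assumed to vary like the other group, the median was -0.56 to -0.34. It was -0.56 without embelin replicate 2 and -0.34 without embelin replicate 1. In the wider list limma called 3 genes, in either direction, with normexp, where 277 of all 17649 were called lower and 422 higher. It called 2 with all 4 arrays above background (345 lower and 419 higher of 15542). With trend and robust it called 6 (499 lower and 566 higher of 17298). As shares of the list, these counts were not far from those of all genes called in either direction. The counts were not split by direction, so they cannot be set against the genes called lower alone. Without these changes in processing, 14 of the 69 were lower and 0 higher at an unadjusted p under 0.05 in limma. Of all genes 11.1% and 8.36% were. The sign of some genes that were not called turned. POLE was at 0.0014 with normexp and TYMS at -0.011 with quantile normalization. RPA1, at -0.58 with its brightest probe, was at 0.20 with the mean over probes. That mean left out its dimmest probe on embelin replicate 1, where it had no value, and every kept probe of RPA1 was negative. Leaving out 1 array turned the sign for POLE (-0.82 to 0.59), RPA3 (-0.34 to 0.14), RFC3 (-0.56 to 0.014), CDT1 (-0.22 to 0.039), POLD1 (-0.16 to 0.056), TYMS (-0.054 to 0.10), E2F1 (-0.035 to 0.13) and CDC45 (-0.018 to 0.077). Apart from constructions named here, the cause was not tested.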
